A study of Mus musculus with 12 samples.

Results

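The myeloid C-type lectin receptors are cell-surface proteins that bind sugars, glycolipids and other ligands on microbes and dying cells, and 10 of their genes were followed here in mouse bone-marrow-derived macrophages: Clec4e, Clec4d, Clec4n, Clec4a1, Clec4a2, Clec4a3, Clec5a, Clec7a, Clec10a and Clec12a. They were taken by gene symbol from a table of 55487 genes, and all 10 were present and passed the filter on low counts that left 15801 genes for testing. The cells were primary macrophages grown from bone marrow with macrophage colony-stimulating factor, from Fes+/+ mice (called wild type here) or Fes-/- mice, 3 mice per genotype by the series' design. Each genotype was given PBS (the protocol calls these cells untreated) or 1 µg/mL lipopolysaccharide (LPS), a component of the outer membrane of Gram-negative bacteria, for 4 hours, with 3 poly-A RNA-sequencing libraries in each of the 4 groups and 1 batch entry in the labels for all 12. Fes encodes a cytoplasmic tyrosine kinase, and the labels name neither the mouse strain, sex or age nor how the Fes allele was made. Whether the allele is limited to some cell types, and whether the PBS and LPS wells of a number came from 1 mouse, is not stated either.

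C-type lectin receptors of myeloid cells fall into groups by how they signal. Activating members either pair with an adaptor that carries an immunoreceptor tyrosine-based activation motif (ITAM), chiefly the Fc receptor gamma chain encoded by Fcer1g or DAP12 encoded by Tyrobp, or carry a single-tyrosine version of that motif themselves; the kinase SYK then binds and signals through a complex of CARD9, BCL10 and MALT1 to NF-kB. Inhibitory members carry a motif of the opposite kind (ITIM) and recruit the phosphatases encoded by Ptpn6, Ptpn11 and Inpp5d. In macrophages these receptors are known for sensing fungi, mycobacteria and damaged cells, and Clec4e is a well-known LPS-inducible gene.

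Most of the genes sit together in the genome. In the GENCODE M21 annotation of GRCm38, 6 of the 10 (Clec4a1, Clec4a3, Clec4a2, Clec4n, Clec4d and Clec4e) lie within 368 kb of chromosome 6, from 122921848 to 123289870, the Dectin-2 gene cluster. Clec12a and Clec7a lie within 130 kb of the same chromosome, from 129342691 to 129472779, in the Dectin-1 cluster. Clec5a stands alone on chromosome 6, from 40574894 to 40585821, and Clec10a on chromosome 11, from 70156197 to 70170834. Clec7a is annotated there as a polymorphic pseudogene, although it encodes a working receptor in common strains.

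The 250 bases before the RefSeq start site are shown for 3 genes: Clec4e, which had the largest LPS change of the 10, Clec4d, its neighbour in the cluster, which rose with it, and Clec12a, whose window held the most motif matches. They are read 5′ to 3′ on the gene's strand from RefSeq's GRCm38.p6 promoter table, which held 8 of the 10 genes (not Clec4n or Clec10a), and capitals mark motif matches. The Clec4e window is chr6:123289872-123290121 (minus strand), the Clec4d window chr6:123261857-123262106 (plus strand) and the Clec12a window chr6:129349994-129350243 (plus strand, inside the longer GENCODE gene span).
Clec4e: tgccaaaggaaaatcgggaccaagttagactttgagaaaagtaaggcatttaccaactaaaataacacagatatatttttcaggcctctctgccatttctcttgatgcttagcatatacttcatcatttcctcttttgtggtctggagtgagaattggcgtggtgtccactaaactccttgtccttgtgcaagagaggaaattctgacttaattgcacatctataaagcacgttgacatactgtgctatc
Clec4d: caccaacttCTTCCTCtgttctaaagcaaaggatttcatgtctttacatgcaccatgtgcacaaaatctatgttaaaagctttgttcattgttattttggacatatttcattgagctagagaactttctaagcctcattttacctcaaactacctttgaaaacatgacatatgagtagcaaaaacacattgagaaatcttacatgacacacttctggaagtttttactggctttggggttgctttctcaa
Clec12a: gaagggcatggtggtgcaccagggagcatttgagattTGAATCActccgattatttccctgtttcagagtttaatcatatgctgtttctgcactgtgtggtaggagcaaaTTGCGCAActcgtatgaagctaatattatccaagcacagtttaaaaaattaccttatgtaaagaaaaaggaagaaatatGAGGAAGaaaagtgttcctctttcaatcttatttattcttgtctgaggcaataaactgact
Both strands were searched for AP-1 (TGANTCA), C/EBP (TTNCGNAA), PU.1 (GAGGAAG), the interferon-stimulated response element (ISRE) and NF-kB. Of all 32851 promoter windows of the same length, 6.75% held AP-1, 2.04% C/EBP, 10.6% PU.1, 2.98% the ISRE and 7.25% NF-kB. Clec12a held TGAATCA (AP-1), TTGCGCAA (C/EBP) and GAGGAAG (PU.1), which do not overlap, and Clec4d held 1 PU.1 match as CTTCCTC, the same letters read on the other strand. Clec5a held 2 PU.1 matches and Clec4a1 held 1, while the windows of Clec4e, Clec7a, Clec4a2 and Clec4a3 held none of the 5 motifs. These letters describe the windows only, and binding was not measured.

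The libraries held 61016254 to 101027166 counts, and the lowest count of any of the 10 genes in any library was 262 (Clec10a). Fes itself, read in every library as a check of the labels, was lower in Fes-/- cells by a log2 difference of -1.38 ± 0.07 (SE, n = 3 per group) under PBS and of -2.26 ± 0.07 under LPS (edgeR adjusted p = 6.16e-08 and 3.23e-10), with transcript remaining in the Fes-/- libraries (63.8 to 66.7 TPM under PBS). The 9 macrophage markers were all present, summing to 17200 to 39600 TPM (a transcript level scaled by gene length and library total). Of 13 neutrophil markers 7 stayed under 1 TPM in every library, Ly6g among them. Others were above 1 TPM throughout: S100a9 (7.82 to 23.5), S100a8 (4.27 to 15.1), Mmp8 (2.44 to 11.1) and Ngp (1.03 to 5.28). Mpo and Camp reached at most 1.21 and 1.07 TPM. Of 7 dendritic cell markers 6 stayed under 1 TPM in every library, and Batf3 stood at 1.21 to 7.27 TPM.

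PBS and LPS libraries differ in make-up, which matters for every LPS comparison below. The 50 most abundant genes took 14.5% to 16.4% of counts under PBS and 20.0% to 20.7% under LPS, and the trimmed-mean (TMM) scaling factors were 1.35 to 1.402 under PBS against 0.707 to 0.737 under LPS. Scaling by library totals alone moved the median log2 change of all tested genes from -0.07 to -0.98 in wild type and from -0.08 to -1.01 in Fes-/- cells. It also moved the share of higher genes among those called from 47.1% to 19.2% and from 46.9% to 18.5%. An LPS change is therefore given under both scalings, TMM first, and a gene is said to rise or fall only where both call it the same way. TPM levels follow library totals, so they carry that second scaling, whereas the order and the ratio of genes within a library do not depend on it. In bulk RNA, fewer cells of a type and less RNA per cell cannot be told apart.

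In resting wild-type macrophages the receptor transcripts were led by Clec4d, followed by Clec12a and Clec4a1, with Clec10a the lowest. Mean levels under PBS were 476 ± 23.5 TPM (SD, n = 3) for Clec4d, 356 ± 21.8 for Clec12a, 282 ± 84.1 for Clec4a1, 207 ± 58 for Clec4a3, 148 ± 12.2 for Clec4a2, 93 ± 30.8 for Clec7a, 66.9 ± 22.7 for Clec4e, 45.1 ± 11.1 for Clec5a, 38.5 ± 14.4 for Clec4n and 30.8 ± 10.7 for Clec10a. Only 2 steps in that order were free of overlap between libraries, from Clec4d to Clec12a and from Clec4a2 to Clec7a. The order in Fes-/- cells under PBS was the same apart from Clec4e and Clec7a, which changed places with overlapping libraries (means 95.8 and 73.6 TPM).

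Under LPS the order was different at the top: Clec4e moved from the seventh place to the first in wild type and from the sixth to the first in Fes-/- cells. It was followed in both genotypes by Clec4d, Clec4a1, Clec12a and Clec4a3, and the ranges of the 4 highest did not overlap with the next in either genotype. Clec4e made up 2.6% to 7.18% of the 10 genes' summed TPM in the 6 PBS libraries and 42.1% to 46.8% in the 6 LPS libraries. The sum went from between 1460 and 1910 TPM to between 2540 and 2800, while without Clec4e it was 1350 to 1870 TPM under PBS and 1440 to 1560 under LPS. The make-up of the receptor transcripts thus differed between PBS and LPS in all 6 libraries of each kind, whichever scaling is used, since a share is taken within a library.

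**Figure D1:**
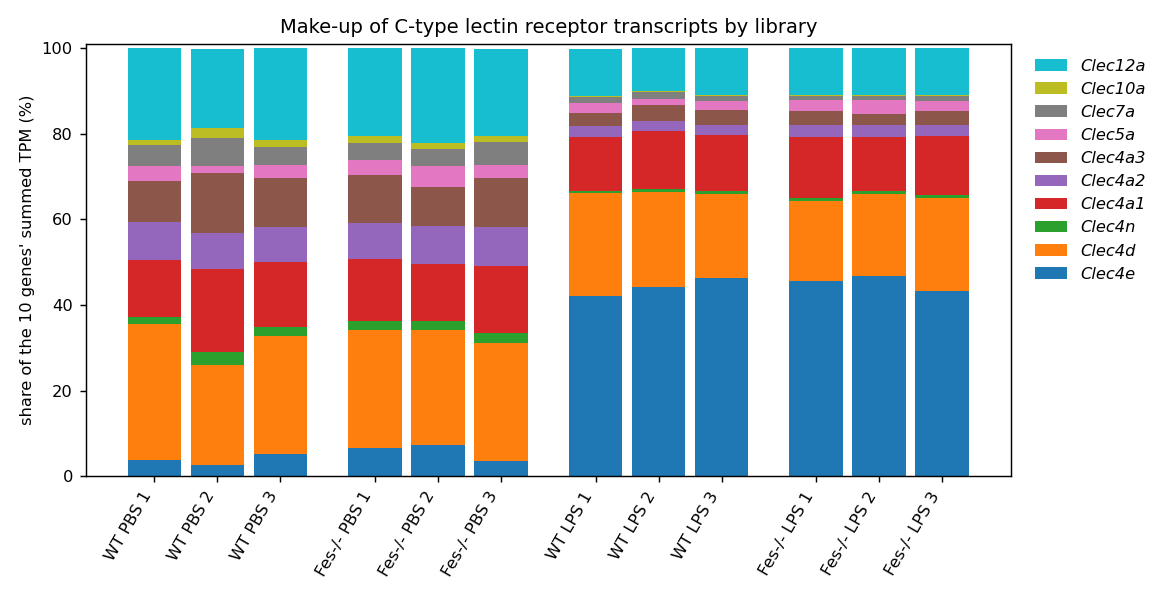
Share of each gene in the 10 genes' summed TPM (%, stacked) in each of the 12 libraries, by genotype and treatment. Clec4e takes 2.6% to 7.18% of the bar in the PBS libraries and 42.1% to 46.8% in the LPS libraries.

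Among the activating receptors that work through the Fc receptor gamma chain, Clec4e and Clec4d rose with LPS in both genotypes, and Clec4n did not pass under TMM. Clec4e encodes Mincle, a receptor for mycobacterial cord factor and for a protein released by dying cells. It was at 58.3, 49.7 and 92.6 TPM in wild type under PBS and at 1070, 1230 and 1250 TPM under LPS. Fes-/- cells had 119, 105 and 63.2 TPM under PBS and 1250, 1280 and 1150 TPM under LPS. Every LPS library was far above every PBS library, and the spread within PBS was wide in both genotypes. The log2 change was 5.09 ± 0.27 (SE) in wild type and 4.67 ± 0.26 in Fes-/- cells with TMM, and 4.17 and 3.73 with library totals (edgeR adjusted p under TMM 2.99e-09 and 5.7e-09). Within the same libraries, the log2 ratio of Clec4e to Clec4d in TPM went from between -3.18 and -1.91 under PBS to between 0.81 and 1.3 under LPS.

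Clec4d encodes MCL, which binds cord factor weakly and pairs with Mincle. Its levels were 496, 450 and 483 TPM in wild type under PBS and 612, 622 and 524 TPM under LPS. The Fes-/- libraries held 491, 392 and 479 TPM under PBS and 518, 521 and 576 TPM under LPS. The LPS libraries of each genotype were all above its PBS libraries, though by a margin that depends on scaling: the log2 change was 1.24 ± 0.10 and 1.22 ± 0.10 with TMM and 0.33 and 0.29 with library totals (edgeR adjusted p 3.63e-08 and 4.43e-08, then 0.0063 and 0.014). Clec4n encodes Dectin-2, a receptor for fungal alpha-mannans. It ranged from 25.3 to 53.9 TPM under PBS and from 14 to 24.7 under LPS over both genotypes, with a log2 change of -0.09 ± 0.26 in wild type and 0.06 ± 0.26 in Fes-/- cells under TMM (edgeR adjusted p = 0.772 and 0.855). With library totals the change was -1.01 and -0.88 (adjusted p = 0.00274 and 0.00627), and no direction held under both scalings.

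**Figure D2:**
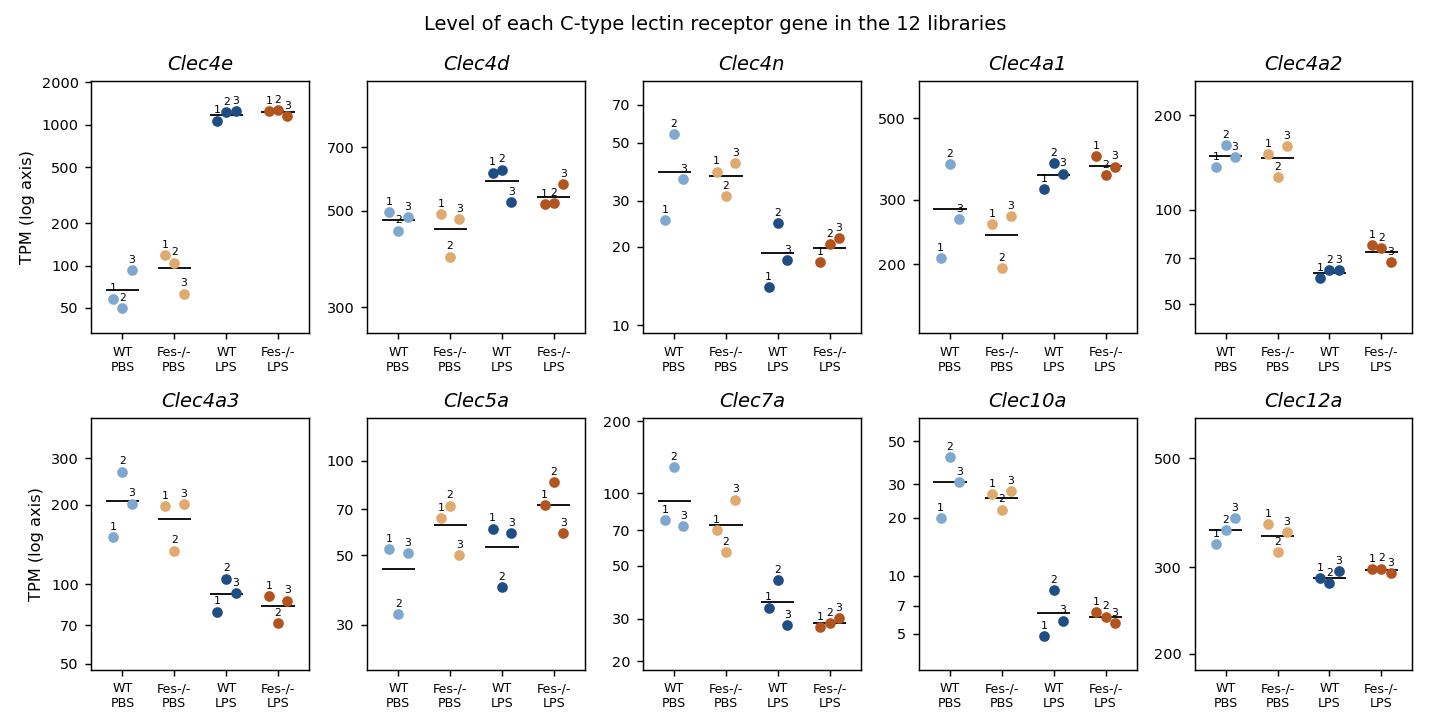
TPM (log axis, its range set per gene) of each receptor gene in the 12 libraries, with points for libraries, numbered as in the labels, and lines for group means. Clec4e stands at 49.7 to 119 TPM in the PBS libraries and at 1070 to 1280 TPM in the LPS libraries, while Clec10a goes from between 20 and 41.5 TPM to between 4.87 and 8.43.

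Clec5a and Clec7a are activating receptors that reach SYK by other routes. Without a block for the library number and with the filter on low counts, each was called under 1 scaling only. Clec5a was called higher with TMM, and Clec7a lower with library totals. Clec5a encodes MDL-1, which signals through DAP12 and is known as a receptor for flaviviruses. It was at 52.3, 32.4 and 50.7 TPM in wild type under PBS and at 60.7, 39.6 and 58.8 TPM under LPS. The Fes-/- levels were 65.4, 71.9 and 50 TPM under PBS and 72, 85.5 and 58.6 TPM under LPS. The PBS and LPS ranges overlapped within each genotype in TPM, but not after TMM scaling. The log2 change was 1.17 ± 0.22 in wild type and 1.19 ± 0.22 in Fes-/- cells with TMM (edgeR adjusted p = 0.000501 and 0.000432). With library totals it was 0.26 and 0.25 (edgeR adjusted p = 0.298 and 0.307). From the PBS to the LPS library of the same number, the change with library totals was 0.28, 0.31 and 0.22 in wild type. In Fes-/- cells it was 0.22, 0.32 and 0.21. With the number as a replicate block and TMM, the change was 1.18 in both genotypes (edgeR adjusted p = 9.34e-10 and 8.41e-10). Whether the numbers pair libraries is not established, and the block was not run with library totals.

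Clec7a encodes Dectin-1, the beta-glucan receptor, which carries the single-tyrosine activation motif in its own tail. Its levels were 77.4, 129 and 73.2 TPM in wild type under PBS and 33.4, 43.6 and 28.3 TPM under LPS. Levels in Fes-/- cells were 70, 56.8 and 94 TPM under PBS and 27.6, 28.7 and 30.2 TPM under LPS. All LPS libraries were below all PBS libraries in TPM. The log2 change was -0.46 ± 0.25 and -0.38 ± 0.25 with TMM (edgeR adjusted p = 0.124 and 0.197) and -1.38 and -1.32 with library totals (adjusted p = 0.000291 and 0.000404). With the library number as a replicate block, Clec7a was called lower with TMM too in both genotypes. The change was then -0.44 in wild type and -0.34 in Fes-/- cells (edgeR adjusted p = 0.0105 and 0.0336). The block was run with TMM only. Without the filter on low counts, and without the block, Clec7a was also called lower with TMM. The change was then -0.55 in wild type and -0.43 in Fes-/- cells (edgeR adjusted p = 3.25e-07 and 9.29e-05).

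Among the ITIM receptors, Clec4a2 fell in wild type, and Clec12a changed sign with the scaling. Clec4a2 encodes DCIR1, an inhibitory receptor that binds sugars. It was at 137, 161 and 147 TPM in wild type under PBS and at 60.7, 64.1 and 64.2 TPM under LPS. Fes-/- macrophages had 151, 127 and 160 TPM under PBS and 77.4, 75.3 and 68.1 TPM under LPS. The LPS libraries were all below the PBS libraries in TPM. In wild type the log2 change was -0.29 ± 0.10 with TMM and -1.21 with library totals (edgeR adjusted p = 0.016 and 1.74e-08), and without the second wild-type PBS library the TMM value was -0.22 and its call was lost (adjusted p = 0.0723). In Fes-/- cells it was -0.01 ± 0.10 with TMM and -0.95 with library totals (adjusted p = 0.908 and 2.7e-07). The most similar transcript of another gene, Clec4a4, shared 84.6% of 785 aligned bases with it and stood at 0.745 to 3.76 TPM.

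Clec12a encodes MICL, an inhibitory receptor that recognises uric acid crystals. It was at 334, 357 and 378 TPM in wild type under PBS and at 285, 278 and 294 TPM under LPS. The Fes-/- libraries were at 367, 322 and 354 TPM under PBS and at 297, 298 and 292 TPM under LPS. It was the steadiest of the 10, with a pooled SD within groups of 0.07 on the log2(TPM + 1) scale against a median of 0.13 over all tested genes. With TMM the log2 change was 0.62 ± 0.08 in wild type and 0.74 ± 0.08 in Fes-/- cells (edgeR adjusted p = 5.19e-06 and 7.99e-07), but with library totals it was -0.29 and -0.19 (adjusted p = 0.00384 and 0.038). Relative to Clec4d in the same library it was lower under LPS whatever the scaling: the log2 ratio was -0.57 to -0.28 in the PBS libraries and -1.16 to -0.8 in the LPS libraries.

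Clec4a1 and Clec4a3 are relatives of Clec4a2 in the same cluster that lack the inhibitory motif. In TPM they went different ways in Fes-/- cells, while in wild type Clec4a3 was lower under LPS and the Clec4a1 ranges overlapped. Clec4a1, which encodes DCIR4, was at 208, 374 and 265 TPM in wild type under PBS and at 321, 377 and 353 TPM under LPS. Its Fes-/- levels were 257, 195 and 270 TPM under PBS and 394, 349 and 369 TPM under LPS. The ranges overlapped in wild type, through the second PBS library, and did not overlap in Fes-/- cells. Clec4a1 rose in Fes-/- cells under both scalings, by 1.6 ± 0.19 with TMM and 0.66 with library totals (edgeR adjusted p = 6.99e-06 and 0.00432). In wild type the change was 1.26 ± 0.19 with TMM (adjusted p = 5.58e-05) and 0.34 with library totals (adjusted p = 0.0953). Clec4a3, which encodes DCIR3, ranged from 134 to 267 TPM under PBS and from 71.1 to 105 TPM under LPS over both genotypes. Its log2 change was -0.22 ± 0.21 in wild type and -0.13 ± 0.21 in Fes-/- cells with TMM (edgeR adjusted p = 0.368 and 0.611). With library totals it was -1.14 and -1.06 (edgeR adjusted p = 0.000326 and 0.000548). Without the filter on low counts, Clec4a3 was called lower with TMM in wild type (-0.31, edgeR adjusted p = 0.00581), but not in Fes-/- cells.

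Clec10a encodes MGL1, an endocytic receptor for galactose-type sugars that is often used as a marker of alternatively activated macrophages, and it fell under both scalings in both genotypes. It was at 20, 41.5 and 30.8 TPM in wild type under PBS and at 4.87, 8.43 and 5.85 TPM under LPS. Fes-/- libraries held 26.7, 22.1 and 27.7 TPM under PBS and 6.49, 6.13 and 5.7 TPM under LPS. No LPS library reached any PBS library. The log2 change was -1.32 ± 0.25 in wild type and -1.09 ± 0.25 in Fes-/- cells with TMM, and -2.24 and -2.02 with library totals (edgeR adjusted p under TMM 0.00041 and 0.0017). Its counts are uncertain in part, because 735 bases of its longest transcript are 96.1% identical to the neighbouring gene family member Mgl2, which stood at 0.566 to 3.47 TPM.

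Counted over the 10 genes, LPS in wild type called 5 higher and 2 lower with TMM, where 73.4% of all tested genes were called (34.6% higher, 38.8% lower). With the replicate block and TMM, 8 of the 10 were called in wild type and 7 in Fes-/- cells, Clec7a being the one added in each. Of all tested genes 75.1% and 75.2% were then called. Without the block and with the filter on low counts, 2 were higher in wild type under both scalings (Clec4e and Clec4d). In the same setting 2 were lower (Clec4a2 and Clec10a). Of all tested genes 16.3% were then higher and 38.8% lower. The counts in Fes-/- cells were 5 higher and 1 lower with TMM, where 73.2% of tested genes were called (34.3% higher, 38.9% lower). Under both scalings 3 were higher (Clec4e, Clec4d and Clec4a1) and 1 lower (Clec10a), against 15.9% and 38.9% of tested genes. The median change of the 10 was 0.27 and 0.4 with TMM and -0.65 and -0.53 with library totals, beside -0.07, -0.08, -0.98 and -1.01 for all tested genes. The sums of marker levels moved with LPS as well. The macrophage markers summed to 29100 to 39600 TPM under PBS and 17200 to 22500 under LPS. The neutrophil markers summed to 42.4 to 54.9 TPM in wild type and 32.1 to 39.3 in Fes-/- cells under PBS, without overlap. Under LPS they summed to 20.9 to 31.4 and 17.5 to 23.2 TPM. Of this list DESeq2 called S100a9 lower in Fes-/- cells under PBS (adjusted p = 0.00195), while edgeR did not (adjusted p = 0.218). The 6 B cell markers summed to 19.3 to 25.7 TPM under PBS and 2.57 to 4.6 under LPS, nearly all of it Cd79b (the other 5 stayed under 1 TPM). The 6 fibroblast markers summed to 0.25 to 0.617 and 3.36 to 6.88 TPM, nearly all of it Pdgfrb under LPS (the other 5 stayed under 1 TPM). Their part in the LPS changes, or in any difference between genotypes, was not tested.

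**Figure D3:**
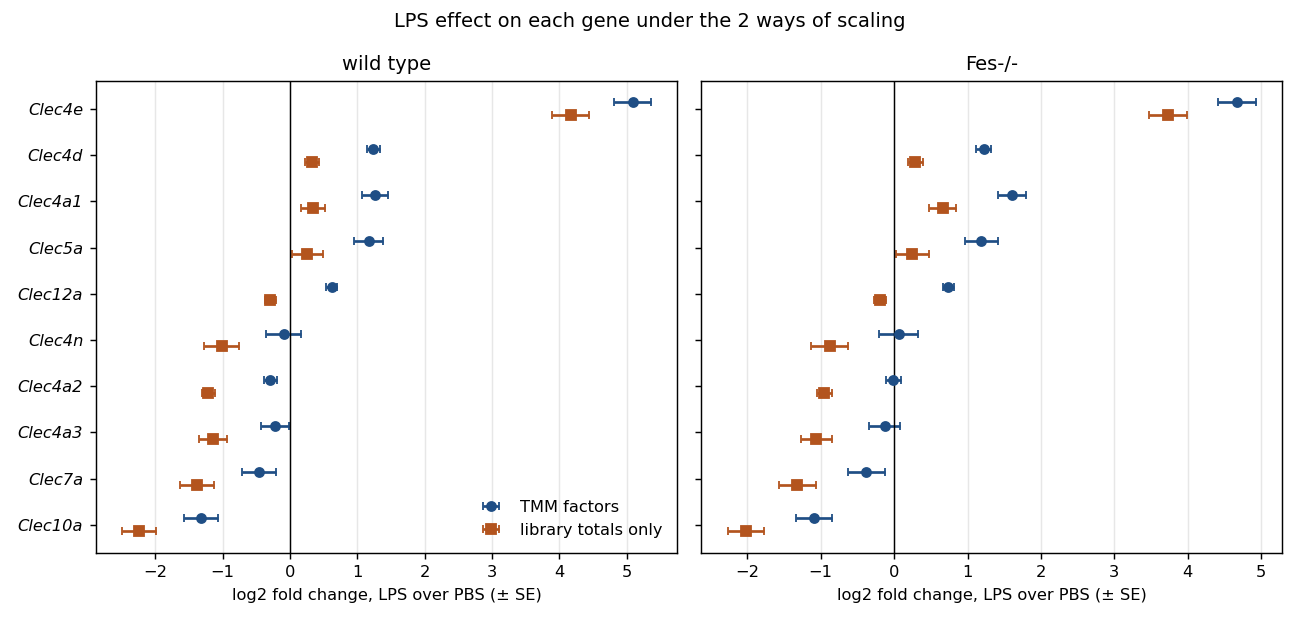
Log2 fold change of LPS over PBS (± SE) for each gene in wild-type and in Fes-/- cells, with circles for TMM factors and squares for library totals. Clec4e and Clec4d lie above 0 and Clec10a below 0 under both scalings in both genotypes, while Clec12a lies at 0.62 and 0.74 under TMM and at -0.29 and -0.19 under library totals.

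Between genotypes, no change was called in any of the 10 receptor genes, with PBS or with LPS. Under PBS the 10 log2 differences of Fes-/- from wild type ran from -0.38 ± 0.25 (Clec7a) to 0.46 ± 0.23 (Clec4e), with a median of -0.10 beside 0 for all tested genes. None of the 10 passed at an adjusted p of 0.05, where edgeR called 13 of 15801 genes (0.0823%). None had an unadjusted p under 0.05 either, as 3.83% of tested genes had, and DESeq2, which called 0.209% of tested genes, called none of the 10. All 10 intervals at 95% lay within a 2-fold difference in either direction, as those of 77.4% of tested genes did. The libraries of the genotypes overlapped for every one of the 10 under PBS, where 3.03% of tested genes were separated upward in Fes-/- cells and 3.8% downward.

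Clec4e and Clec5a had the largest positive differences under PBS. For Clec4e the difference was 0.46 (interval -0.04 to 0.96, edgeR adjusted p = 0.975), and it was 0.26 without the first Fes-/- PBS library, 0.28 without the second wild-type PBS library and 0.76 without the third wild-type PBS library. For Clec5a it was 0.41 ± 0.22 (interval -0.07 to 0.89, adjusted p = 0.975). Clec7a, Clec10a, Clec4a1 and Clec4a3 had negative values of -0.38, -0.32, -0.27 and -0.27. Leaving out the second wild-type library of each treatment, a choice made after seeing the data, moved these 4 to -0.07, -0.04, -0.02 and -0.04, and Clec5a to 0.22. Leaving out the second Fes-/- libraries instead gave -0.21, -0.21, -0.13 and -0.09, and 0.31 for Clec5a. Without the filter on low counts, Clec4e, Clec5a and Clec7a passed (edgeR adjusted p = 0.00514, 0.00813 and 0.0174), a setting under which 315 genes were called in place of 13.

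Under LPS the differences ran from -0.30 ± 0.26 (Clec7a) to 0.43 ± 0.22 (Clec5a), with a median of 0.04 beside 0 for all tested genes. None of the 10 passed in edgeR, where 17 genes (0.108%) were called, none had an unadjusted p under 0.05, as 6.52% of tested genes had, and DESeq2 called none where it called 0.24% of tested genes. All 10 intervals lay within 2-fold, as those of 74% of tested genes did. Clec4a2 was the only one of the 10 whose libraries did not overlap between genotypes after TMM scaling, higher in Fes-/- cells (60.7 to 64.2 TPM in wild type, 68.1 to 77.4 in Fes-/-), where 5.78% of tested genes were separated in that direction. Its difference was 0.21 ± 0.10 (interval 0 to 0.43, edgeR adjusted p = 0.769). Clec5a passed without the filter on low counts (0.47, edgeR adjusted p = 0.000579), where 358 genes were called in place of 17. Clec4e, the most abundant receptor transcript under LPS, differed by 0.04 ± 0.23 (interval -0.46 to 0.53).

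**Figure D4:**
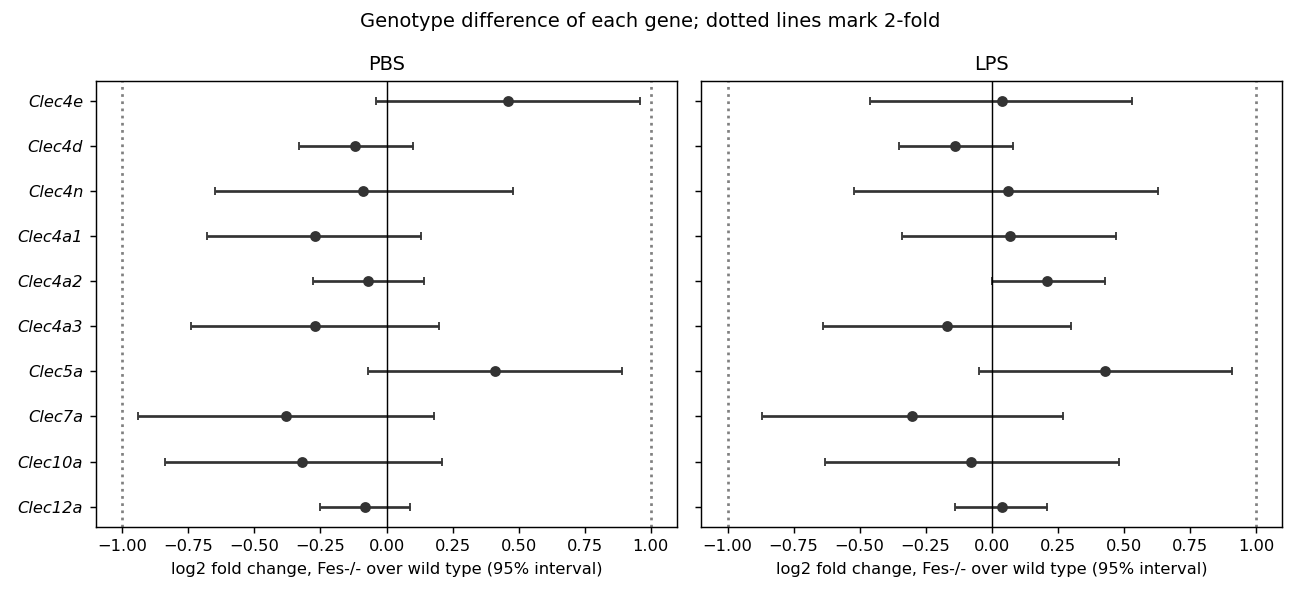
Log2 fold change of Fes-/- over wild type for each gene under PBS and under LPS (TMM, points with 95% intervals), with dotted lines at a 2-fold difference. All 20 intervals lie between the dotted lines, and Clec5a has positive values of 0.41 and 0.43 in the 2 panels.

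Whether LPS acted differently in the genotypes was tested directly as the difference of the LPS effects. No receptor gene was called, and edgeR called 3 of all tested genes (0.019%). For none of the 10 was the unadjusted p under 0.05, as it was for 2.94% of tested genes, and DESeq2 called none of them among the 0.0316% it called. The Clec4e value was -0.42 ± 0.32 (interval -1.12 to 0.28), for Clec4a1 it was 0.34 ± 0.26 and for Clec4a2 0.28 ± 0.14 (interval -0.02 to 0.58, unadjusted p = 0.0671), each with an edgeR adjusted p of 1. Clec4a2 was called lower with LPS in wild type and not in Fes-/- cells under TMM, but this test did not find those effects to differ. For 8 of the 10 the interval lay within 2-fold, as for 66.5% of tested genes. The intervals of Clec4e and Clec10a (upper bound 1) reached further.

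Replicate libraries differed in a patterned way, which sets the precision of these comparisons. The pooled SD within groups on the log2(TPM + 1) scale was 0.35 for Clec4n, 0.34 for Clec4e, 0.32 for Clec5a, Clec7a and Clec10a, 0.30 for Clec4a3 and 0.26 for Clec4a1, beside a median of 0.13 over all tested genes. The second wild-type PBS library was the highest of its group for Clec4n, Clec4a1, Clec4a2, Clec4a3, Clec7a and Clec10a and the lowest for Clec4e, Clec4d and Clec5a. The second wild-type LPS library was also the highest for Clec4n, Clec4a1, Clec4a3, Clec7a and Clec10a and the lowest for Clec5a. It was however the highest for Clec4d and the lowest for Clec12a, and it was not the lowest for Clec4e. In Fes-/- cells the second PBS library went the other way, lowest of its group for 8 of the 10 and highest for Clec5a. The second Fes-/- LPS library matched it in part, lowest for Clec4a1 and Clec4a3 only and highest for Clec5a, Clec4e and Clec12a. After removal of group means, the correlation over the 12 libraries was 0.96 for Clec4a1 with Clec4a3, 0.93 for Clec4n with Clec10a and -0.88 for Clec5a with Clec7a. These are descriptions without a test: the genes share libraries, their depth and their scaling, and the 12 deviations come from groups of 3.

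**Figure D5:**
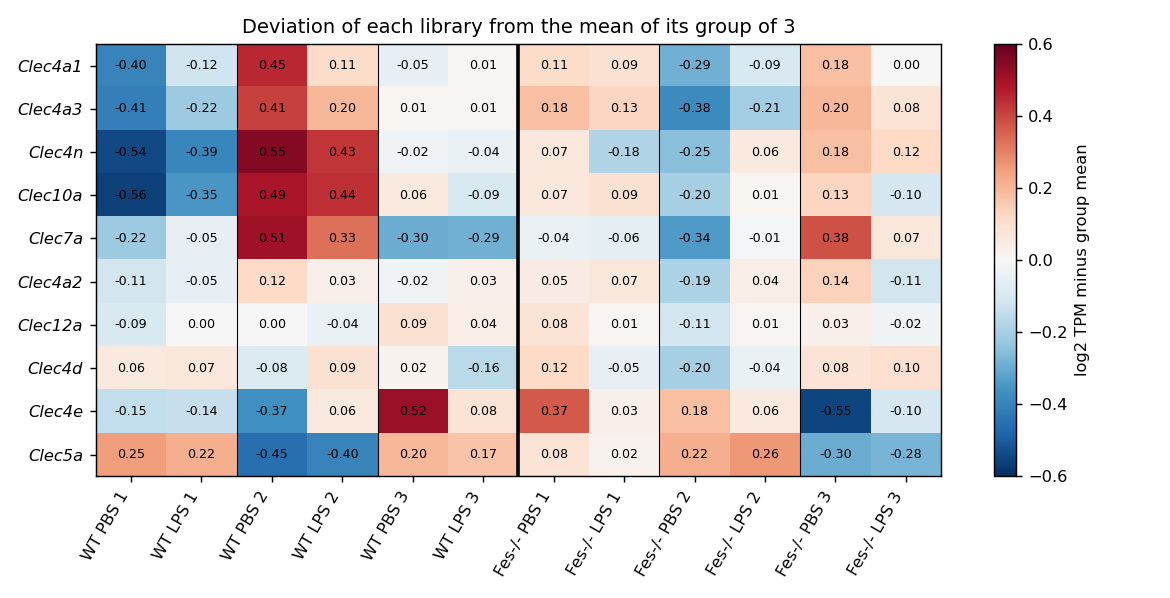
Log2 TPM of each gene (rows) in each library (columns, ordered by genotype and number with PBS and LPS side by side) minus the mean of its group of 3. In the second wild-type libraries Clec4n is at 0.55 (PBS) and 0.43 (LPS) and Clec5a at -0.45 and -0.40, and in the second Fes-/- libraries Clec5a is at 0.22 and 0.26.

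Of the adaptor genes listed, Fcer1g and Tyrobp were abundant and Hcst less so (17.3 to 38.1 TPM), and none rose or fell under both scalings. Fcer1g, the gamma chain used by Mincle and Dectin-2, had group means of 2970 and 2630 TPM in wild type under PBS and LPS and 2870 and 2620 TPM in Fes-/- cells. It was called higher with TMM in both genotypes (log2 0.77 ± 0.08 and 0.84 ± 0.08, edgeR adjusted p = 5.34e-07 and 1.93e-07) and not with library totals (-0.14 and -0.09). Of the 3 adaptor genes listed, Fcer1g, Tyrobp and Hcst, it was the only one called for LPS with TMM. Tyrobp, which encodes DAP12, went from 3530 to 1860 TPM in wild type and from 3200 to 1620 in Fes-/- cells. With library totals it was called lower (-0.9 and -0.95, edgeR adjusted p = 2.27e-06 and 1.21e-06), as was Hcst (-0.6 and -0.85). Neither edgeR nor DESeq2 called any of the 3 between genotypes.

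Downstream, the genes of SYK and CARD9 signalling changed with LPS in both directions. Of 22 genes, all tested, 14 were called higher and 7 lower in wild type with TMM, and 6 and 7 under both scalings. Over all tested genes the shares were 34.6% higher and 38.8% lower with TMM and 16.3% and 38.8% under both. The counts in Fes-/- cells were the same, 14 and 7 and then 6 and 7. Malt1, the protease of the CARD9 complex, went from a mean of 7.43 to 208 TPM in wild type, a log2 change of 5.75 ± 0.12 with TMM and 4.83 with library totals (edgeR adjusted p = 2.42e-14 and 4.43e-14). Lcp2, which encodes the adaptor SLP-76, went from 87.1 to 618 TPM (3.77 and 2.86), and Lyn, a SRC-family kinase, from 169 to 494 TPM (2.49 and 1.58). Card9, the scaffold itself, fell from 105 to 18.2 TPM (-1.59 ± 0.08 and -2.5, edgeR adjusted p = 6.43e-11 and 6.69e-13). In Fes-/- cells Malt1 changed by 5.57, Lcp2 by 3.61, Lyn by 2.44 and Card9 by -1.57 with TMM. Neither edgeR nor DESeq2 called any of the 22 between genotypes under PBS or LPS.

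The phosphatases that ITIM receptors recruit differed from one another. Inpp5d, which encodes SHIP-1, fell from 184 to 20 TPM in wild type and from 176 to 18.6 TPM in Fes-/- cells (log2 -2.26 ± 0.07 and -2.27 ± 0.07 with TMM, -3.17 and -3.2 with library totals, edgeR adjusted p under TMM 1.02e-12 and 9.94e-13). Ptpn11, which encodes SHP-2, was called higher with TMM (0.85 and 0.86) but not with library totals (-0.06 and -0.07). Ptpn6, which encodes SHP-1, was not called with TMM (-0.13 in both genotypes) but was called lower with library totals (-1.04 in wild type and -1.06 in Fes-/- cells, edgeR adjusted p = 2.24e-08 and 1.73e-08). No phosphatase gene was called between genotypes by edgeR or DESeq2.

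Of 44 other genes of the C-type lectin family, 26 were expressed enough to be tested, and LPS called 13 higher and 7 lower in wild type with TMM (9 and 7 under both scalings), and 13 and 6 in Fes-/- cells (9 and 6). Over all tested genes LPS called 34.6% higher and 38.8% lower in wild type with TMM (16.3% and 38.8% under both scalings), and 34.3% and 38.9% in Fes-/- cells (15.9% and 38.9%). The 4 with the smallest p in wild type were Sele, Thbd, Klrk1 and Clec2d. Sele, which encodes E-selectin, had a mean of 0.00514 TPM in wild type under PBS and 27.7 under LPS, and Klrk1, which encodes the receptor NKG2D, 0.0501 and 8.1 TPM, so their PBS levels were near 0. Thbd, which encodes thrombomodulin, fell from 27 to 0.762 TPM (log2 -4.21 ± 0.19 with TMM, -5.12 with library totals). Clec2d, which encodes a ligand of natural killer cell receptors, rose from 91.9 to 279 TPM (2.54 ± 0.13 and 1.63). Clec4b1, a tested neighbour of the receptors in the Dectin-2 cluster that was chosen for its place there, fell from 30.5 to 8.91 TPM (-0.83 ± 0.20 and -1.75, edgeR adjusted p = 0.00133 and 6.42e-07). Between genotypes edgeR called none of the 26, while DESeq2 called Thbd higher in Fes-/- cells under LPS (adjusted p = 0.0055, and 0.352 in edgeR, where the log2 difference was 0.85 ± 0.20).

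The genes whose log2(TPM + 1) followed Clec4e most closely over the 12 libraries, of 10971 compared, were Acod1 (r = 0.999), Tent4a (0.998) and Ccl9 (0.998). For Clec7a they were Tle2 (0.991), Slc9a9 (0.989) and Kdm5b (0.985), and for Clec10a Hacd4 (0.995), Serinc3 (0.995) and Snap23 (0.993). Acod1, which encodes the enzyme that makes itaconate, went from a mean of 21.8 to 9920 TPM in wild type and from 34.4 to 10400 TPM in Fes-/- cells. Such values follow mainly the contrast of PBS with LPS: an r above 0.9 was reached by 1400 genes for Clec4e, 3311 for Clec7a and 6393 for Clec10a.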

How the data were processed

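The authors deposited a table of raw counts per Ensembl gene and a table of TPM values, 1 column per library. The tools in the submitters' processing notes are DESeq2 1.34.0, R 4.1.12, the aligner STAR 2.7.8a and the program Picard 2.9.0; the notes list GRCm38 and mm9 without their roles; the counting program and its use of strand are not given in the sources used here. For 9349 of 9482 genes (98.6%) the length implied by deposited counts and TPM lay within 1% of the merged exon length in GENCODE M21 on GRCm38, so positions were taken from it.

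Tests on the counts used edgeR 4.0.16 under R 4.3.3 (filterByExpr, TMM, robust quasi-likelihood, 12 libraries, 1 mean per group, 8 residual degrees of freedom). P-values were Benjamini-Hochberg adjusted over 15801 genes, called under 0.05, and all are two-sided. Alternatives used DESeq2 1.42.0, limma 3.58.1, other scalings and filters, and left-out libraries. Transcripts were compared with BLAST 2.17.0, and the count test was checked on simulated data. Named genes were the 10 receptors, Fes, up to 4 per pathway list by smallest p, and the 3 most similar genes to Clec4e, Clec7a and Clec10a. The members and lists were chosen with earlier results of these data known. The design names 3 mice per genotype; it does not say which libraries share a mouse. Over all tested genes, deviations from group means correlated at 0.14, 0.17 and 0.14 between wild-type PBS and LPS libraries of the same number. Each was above 0.1, so the numbers were taken as a possible pairing. That reading comes from the data, not the labels, and the cut does not establish pairing. The second wild-type and the third Fes-/- PBS libraries, from different genotypes, correlated at 0.22.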

Additional observations from a re-analysis of the deposited data

Results flagged for a closer look

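No receptor gene was singled out. Fes itself, which is not one of the receptors, differed between genotypes in its LPS effect by the direct test: the log2 difference was -0.87 ± 0.10 (edgeR adjusted p = 0.00556), with -0.15 ± 0.07 in wild type and -1.02 ± 0.07 in Fes-/- cells. With library totals the difference was -0.89 (adjusted p = 0.00424).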

How the results depend on the processing

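Scaling was the choice that mattered for LPS. Under library totals, log2(TPM + 1) and log2(TPM + 0.1) with limma, Clec12a turned to -0.29, -0.32 and -0.32 in wild type and to -0.19, -0.23 and -0.23 in Fes-/- cells, and Clec4n to -0.88, -0.88 and -0.91 in Fes-/- cells. Of the single-gene LPS values under all alternatives, 417 kept their side of the threshold, 23 became called, 11 lost their call and 9 turned. Between genotypes 456 stayed uncalled and 4 became called, all 4 without a filter; for the difference of LPS effects all 220 stayed uncalled. Among these 1140 values, 60 that were called in neither setting changed sign.

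Genes called between genotypes numbered 33 under PBS and 38 under LPS with DESeq2, and 315 and 358 without a filter; receptor genes called without a filter numbered 3 and 1. For the difference of LPS effects, 5 genes were called with DESeq2, 90 without a filter, 6 and 5 with log2(TPM + 1) and log2(TPM + 0.1), and 0 without the second Fes-/- libraries. Causes were not tested.

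The replicate numbers passed the 0.1 cut on correlated deviations in wild type, which does not establish that they pair libraries. Same-numbered PBS and LPS libraries of Fes-/- cells had deviations correlated at 0.07, 0.09 and 0.19 over all tested genes, not all above the cut. Each Fes-/- PBS library nevertheless correlated best with the LPS library of its own number, a hint from the data. The main test paired no libraries in either genotype. Across genotypes the values for the same number were -0.16 to 0.02. Between genotypes the replicate block was the number alone, shared across genotypes. It called 12 genes under PBS and 12 under LPS, with 0 and 0 receptor genes. For LPS and the difference of LPS effects, the block was genotype and number together, in Fes-/- cells as in wild type. It called 11862 and 11877 genes for LPS and 4 for the difference, with 8, 7 and 0 receptor genes. Clec7a was then called (edgeR adjusted p = 0.0105 in wild type, 0.0336 in Fes-/- cells), and the block changed no other receptor call. With 3 libraries a group, small differences could be missed. The intervals given are not adjusted for the number of genes tested, so even an interval that excludes 0 need not lead to a call. Between genotypes, edgeR left Thbd under LPS uncalled at 0.85 ± 0.2 (adjusted p = 0.352). It also left S100a9 under PBS uncalled at -0.79 ± 0.17 (adjusted p = 0.218). Neither is one of the receptors followed here.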

Other observations

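Clec5a and Clec4a3 deviated alike in the PBS and the LPS library of the same number. Over the 6 numbers (3 per genotype), the correlation of the PBS deviation with the LPS deviation was 0.99 for both, with the same sign in 6 of 6. For Clec4a1, Clec10a, Clec4n and Clec7a it was 0.91, 0.87, 0.85 and 0.81, and for Clec4e 0.57. It was 0.20 for Clec12a, 0.07 for Clec4d and -0.21 for Clec4a2, the genes with the smallest spread within groups. With 6 points that share their group means, these values are descriptions only.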
